A study of Mus musculus with 48 samples.

Results

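Foxp3, Ctla4, Il2ra, Tigit and Pdcd1 are the regulatory T cell and checkpoint genes described here. They were taken by symbol from the deposited count table and are 5 of the 547 immune genes that the nCounter Mouse Immunology panel measured in fat. All 5 had a mean count of at least 10 and were tested. The tissue was epididymal white adipose tissue, a visceral depot attached to the epididymis. The mice were of the inbred strain C3H/HeOuJ and ate freely from their diet for 6 months, and their age is not given in the sources used here. The 48 samples fall into 6 diets: sucrose/palmitate (8 samples), starch/palmitate (7), sucrose/oleate (9), starch/oleate (9), a Western diet (7; the Adjusted Fat Diet) and chow (8). The first 4 were custom diets that cross a carbohydrate with a fat, and the study's design text gives all 5 fat-rich diets 42% of calories as carbohydrate and 42% as fat. No transgene or knockout is listed for any group, and nothing in the labels says that animals were pooled.

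Regulatory T cells are CD4 T cells that restrain other immune cells, and in visceral fat they are known for holding inflammation down and for a dependence on interleukin 33 and its receptor. Foxp3 encodes the transcription factor that defines them. Il2ra encodes CD25, the alpha chain that gives the interleukin 2 receptor its high affinity, which regulatory T cells carry constantly and other T cells gain on activation. Ctla4, Tigit and Pdcd1 encode inhibitory receptors: CTLA-4 competes with CD28 for CD80 and CD86, TIGIT binds CD155 on other cells, and PD-1 binds PD-L1 and PD-L2. Regulatory T cells carry CTLA-4 and often TIGIT, but activated T cells carry all 3 and natural killer cells carry TIGIT, so none of these transcripts marks a single cell type. In RNA of whole tissue, fewer cells of a type and less RNA per cell cannot be told apart.

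Each count is the number of barcodes read for a gene's probe, and levels below are counts scaled to the geometric mean of 14 reference genes on the panel. Libraries held 396391 to 888687 counts in all, with a median of 635028.5. All 3 adipocyte markers (Cfd, Pparg, Cd36) and all 3 T cell markers (Cd3d, Cd3e, Cd247) were measured. Differences are log2 differences with their standard errors from edgeR's quasi-likelihood test, fitted over 491 genes in all 48 samples, with p-values adjusted over those genes by the Benjamini-Hochberg method and a threshold of 0.05. The median gene lay above chow by 0.20 in sucrose/palmitate, 0.24 in starch/palmitate, 0.19 in sucrose/oleate, 0.34 in starch/oleate and 0.25 in the Western diet, and TMM scaling moved these medians to 0.08, 0.10, 0.03, 0.08 and 0.11. Genes called higher and lower than chow numbered 237 and 59 in starch/oleate, against 168 and 114 with TMM scaling, and 101 and 23 in starch/palmitate, against 73 and 54. They numbered 73 and 11 in sucrose/palmitate (39 and 22 with TMM scaling), 142 and 38 in sucrose/oleate (110 and 68), and 161 and 39 in the Western diet (116 and 55). Of the adipocyte markers, 3 of 3 were called lower than in chow in sucrose/palmitate (2.24% of all genes tested), starch/palmitate (4.68%) and the Western diet (7.94%), and 2 of 3 in sucrose/oleate (7.74%) and starch/oleate (59 of 491 genes). Cfd, which encodes adipsin, gave -4.11 (adjusted p = 2.80e-09) in starch/oleate and -3.38 in the Western diet on the log2 scale, and Pparg, the adipocyte transcription factor gene, -1.49 and -0.79. The summed level of these markers ran from 63017 to 141135 in sucrose/palmitate, from 59216 to 87052 in starch/palmitate, from 68844 to 105137 in sucrose/oleate, from 53011 to 73992 in starch/oleate and from 23954 to 65501 in the Western diet, against 83966 to 303893 in chow. They moved with the differences from chow given below, and their part in those was not tested. Counts of the strongest positive control over the next one lay between 2.92 and 3.16 in starch/palmitate, against 3.17 to 3.39 in chow. These ranges do not overlap. In sucrose/oleate (2.92 to 3.07) the ratio also lay below that of chow and that of starch/oleate (3.11 to 3.28), while the labels name no batch. In 4 libraries (starch/palmitate 1 and 3 and starch/oleate 2 and 6) the mean log2 level of the epithelial markers lay over 3 median absolute deviations above the median of all libraries.

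Most of these genes were measured close to the background of the assay. A library's background is given by 8 negative control probes, whose counts averaged 7.51 and reached 21. A gene is called detected here where its raw count was above the mean plus 2 SD of those probes in the same library, a limit between 8.41 and 20.9 counts. Foxp3 was detected in 9 of 48 libraries, Tigit in 14, Ctla4 in 20, Pdcd1 in 27 and Il2ra in all 48. With the highest negative probe as the limit instead, Foxp3 was detected in 15 libraries, Tigit in 17, Ctla4 in 21, Pdcd1 in 31 and Il2ra in all 48. Mean raw counts were 11.3 for Foxp3, 13.1 for Ctla4, 13.2 for Tigit, 19.8 for Pdcd1 and 60.1 for Il2ra. Counts of the 4 dim genes therefore include background, which can shrink or shift a fold change: the scaled mean of the negative probes was 8.38 in sucrose/palmitate and 6.88 in sucrose/oleate, against 7.52 in chow. With the mean of the negative probes subtracted in each library, Tigit in sucrose/palmitate against chow turned to +0.40 (adjusted p = 0.741). A difference of a dim gene that misses the threshold was not detected here and is not shown to be absent. The lowest value in the table is 1 and no value is 0, so a count of 1 may stand for a lower one.

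**Figure D1:**
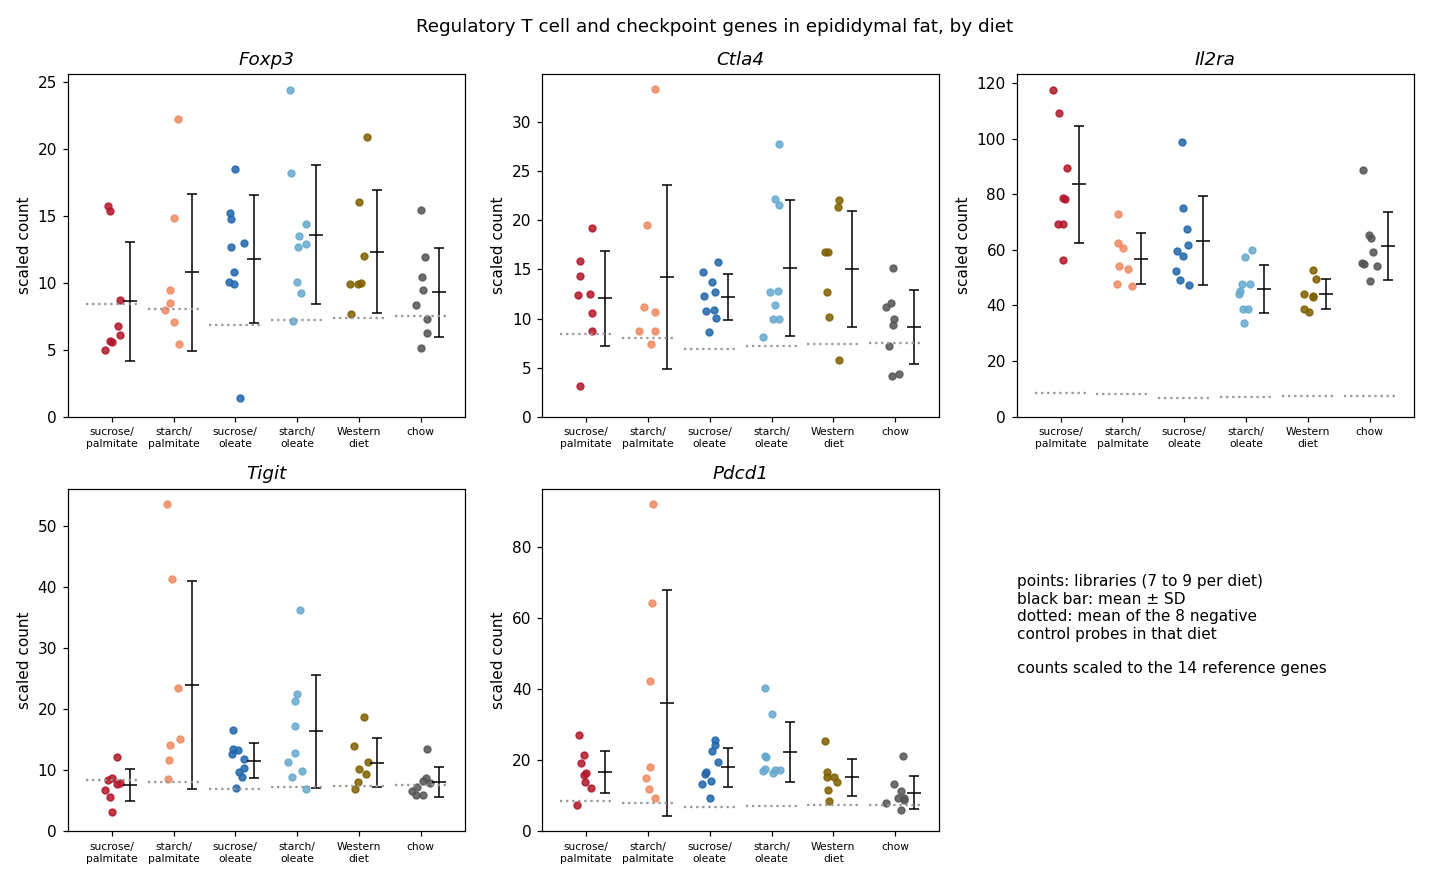
Counts scaled to the reference genes (vertical axis, linear, starting at 0) for the 5 genes in each of the 48 libraries, by diet. Points are libraries, black bars are means with SD, and dotted lines are the mean of the 8 negative control probes in that diet. Il2ra sits far above the dotted line in every library, while the lowest Foxp3 libraries lie near or below it in every diet. Tigit and Pdcd1 spread widely in starch/palmitate, where 3 libraries lie above 20 for Tigit and above 40 for Pdcd1.

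Across the 6 diets together, an F test in the same fit called Il2ra (adjusted p = 7.54e-06), Tigit (adjusted p = 9.88e-05) and Pdcd1 (adjusted p = 0.000939), which is 3 of the 5 genes, beside 64.8% of all genes tested. Ctla4 (adjusted p = 0.241) and Foxp3 (adjusted p = 0.236) did not pass. The genes that passed fell into 2 patterns, with Il2ra highest under sucrose and Tigit and Pdcd1 highest under starch.

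The promoters of these 3 genes are shown because they are the ones that passed across the diets, with Tigit and Pdcd1 higher and Il2ra lower in starch/oleate fat than in chow. Each line gives the 250 bases before the gene's start, read 5′ to 3′ on the gene's strand, from RefSeq's table for GRCm38.p6. Capitals mark GGAAA, the core that the activation-induced factor NFAT recognises, or its complement TTTCC. Tigit lies on the minus strand at chr16:43664185-43664434, Pdcd1 on the minus strand at chr1:94052554-94052803 and Il2ra on the plus strand at chr2:11642542-11642791.
Tigit: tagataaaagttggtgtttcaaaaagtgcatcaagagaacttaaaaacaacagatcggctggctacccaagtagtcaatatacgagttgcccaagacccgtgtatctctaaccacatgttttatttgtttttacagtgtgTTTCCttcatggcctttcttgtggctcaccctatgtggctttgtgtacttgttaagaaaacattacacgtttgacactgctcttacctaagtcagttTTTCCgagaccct
Pdcd1: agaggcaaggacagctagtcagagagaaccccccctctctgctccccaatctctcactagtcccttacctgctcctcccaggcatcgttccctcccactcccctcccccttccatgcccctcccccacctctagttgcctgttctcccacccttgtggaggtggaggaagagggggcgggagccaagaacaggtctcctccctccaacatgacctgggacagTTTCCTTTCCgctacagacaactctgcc
Il2ra: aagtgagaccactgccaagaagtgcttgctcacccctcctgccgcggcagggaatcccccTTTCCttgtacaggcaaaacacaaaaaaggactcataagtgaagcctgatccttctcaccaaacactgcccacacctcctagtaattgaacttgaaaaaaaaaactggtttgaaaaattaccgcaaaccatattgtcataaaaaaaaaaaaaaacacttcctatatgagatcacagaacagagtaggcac
The motif was found at 2 places in the Tigit window, 2 adjoining places in that of Pdcd1 and 1 in that of Il2ra, on either strand. It is common: 55.6% of 32851 promoter windows of this length hold it. The AP-1 motif TGANTCA, held by 6.75% of windows, and the STAT motif TTCNNNGAA, held by 7.02%, had 0 matches in these 3 windows, which says only that these letters are not in them.

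Il2ra, the receptor chain measured best, was highest in sucrose/palmitate fat and lowest in Western diet and starch/oleate fat. Its level in the 8 sucrose/palmitate libraries ran from 56.5 to 118 with a median of 78.4. It ran from 47.5 to 98.9 in sucrose/oleate (median 59.6), from 47.2 to 73.0 in starch/palmitate (median 54.0) and from 33.6 to 60.0 in starch/oleate (median 45.1). In the Western diet it ran from 37.6 to 52.6 (median 43.2), against 48.9 to 88.7 in chow (median 57.2). The mean order was sucrose/palmitate 83.5 ± 20.9 (SD, n = 8), sucrose/oleate 63.3 ± 15.97 (n = 9), chow 61.3 ± 12.3 (n = 8), starch/palmitate 56.9 ± 9.20 (n = 7), starch/oleate 45.9 ± 8.66 (n = 9) and Western diet 44.1 ± 5.42 (n = 7). Among neighbours in this order, starch/palmitate and starch/oleate were the only pair whose means differed by more than the larger SD, and every neighbouring pair overlapped in range.

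Il2ra was higher with sucrose than with starch. Over both fats the difference was +0.51 ± 0.10 (adjusted p = 0.000704), a 1.42-fold higher level, with a 95% interval from 0.31 to 0.71. With palmitate it was +0.56 ± 0.15 (adjusted p = 0.0402), and 5 of 8 sucrose/palmitate libraries lay above every starch/palmitate library. With oleate it was +0.46 ± 0.14 (adjusted p = 0.0172), and 9 of 9 sucrose/oleate libraries lay above the starch/oleate mean. The interaction of carbohydrate and fat was +0.10 ± 0.20 (adjusted p = 0.853), with an interval from -0.31 to 0.51. A difference between the fats within these limits therefore remains possible. The call over both fats held in all 12 alternative analyses and without any 1 of the 33 custom diet libraries. The calls within each fat were less stable. The call with palmitate was lost when only the 2 groups compared were fitted (+0.56, adjusted p = 0.262), with positive control scaling (+0.46, adjusted p = 0.382) and with the ratio of the 2 strongest positive controls as a covariate (+0.56, adjusted p = 0.288). It was also lost with the replicate block (+0.55, adjusted p = 0.0929), with the T cell covariate described below (+0.53, adjusted p = 0.0770) and without the 4 libraries high in epithelial genes (+0.56, adjusted p = 0.345). Over all genes, the fit of only those 2 groups called 0 and the replicate block 1. The call with oleate was lost with positive control scaling (+0.51, adjusted p = 0.0729), the positive control ratio (+0.46, adjusted p = 0.0668) and a B cell and lymph node covariate (+0.46, adjusted p = 0.0812). The ranges of that ratio do not overlap between the 2 oleate diets, so there the ratio and the diet cannot be told apart. Among single libraries, the call with palmitate was lost (adjusted p 0.0509 to 0.129) without sucrose/palmitate 1, 6 or 7 or starch/palmitate 1, 2, 3, 4 or 5, and the call with oleate without sucrose/oleate 6 (+0.36, adjusted p = 0.0697).

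Il2ra was also higher with palmitate than with oleate. Averaged over both carbohydrates the difference was +0.36 ± 0.10 (adjusted p = 0.00583), a 1.28-fold higher level. It missed the threshold with positive control scaling (+0.31, adjusted p = 0.0712). Neither single step passed: the difference was +0.40 ± 0.14 with sucrose (adjusted p = 0.0822) and +0.31 ± 0.15 with starch (adjusted p = 0.0973). Without sucrose/oleate 6, the step with sucrose was +0.50 (adjusted p = 0.0332).

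Il2ra fell in Western diet fat and in starch/oleate fat relative to chow. The Western diet difference was -0.47 ± 0.15 (adjusted p = 0.0110), with 7 of 7 libraries below the chow mean. In starch/oleate it was -0.42 ± 0.14 (adjusted p = 0.00996), with 9 of 9 libraries below the chow mean and 7 of them below every chow library. The median gene of both diets lay above chow, as given above. Positive control scaling ended both calls (-0.34, adjusted p = 0.161 in the Western diet and -0.27, adjusted p = 0.199 in starch/oleate). In sucrose/palmitate fat the level was 1.36-fold higher than in chow, +0.45 ± 0.14 (adjusted p = 0.0323). That call was lost under 7 of 12 alternatives. The smallest values were those of DESeq2 (+0.27, adjusted p = 0.219) and TMM scaling (+0.31, adjusted p = 0.170), and the fit of only these 2 groups gave +0.45 (adjusted p = 0.0803). Positive control scaling gave +0.53 (adjusted p = 0.0766), and the covariates gave adjusted p 0.0525 (positive control ratio), 0.0650 (T cell genes) and 0.0845 (B cell and lymph node genes). It was also lost without chow 2, 4 or 6 or sucrose/palmitate 1, 6 or 7 (adjusted p 0.0507 to 0.0934). Starch/palmitate gave -0.11 ± 0.15 (adjusted p = 0.588) and sucrose/oleate +0.04 ± 0.14 (adjusted p = 0.832), with intervals from -0.41 to 0.19 and from -0.24 to 0.33.

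The largest Il2ra difference among the comparisons made lay between the Western diet and sucrose/palmitate, the custom diet with the highest Il2ra mean. No other custom diet was compared with the Western diet, whose mean of 44.1 lay close to the 45.9 of starch/oleate. Western diet fat held 1.89-fold less Il2ra than sucrose/palmitate fat, a difference of -0.92 ± 0.15 (adjusted p = 6.35e-05). All 7 Western diet libraries lay below the lowest sucrose/palmitate library, at 37.6 to 52.6 against 56.5 or more. This call held in all 12 alternative analyses and without any 1 library of either diet. It was the only 1 of the 5 genes called in that comparison, beside 6.11% of all genes tested. Tigit gave +0.52 ± 0.34 (adjusted p = 0.405), Foxp3 +0.54 ± 0.31 (adjusted p = 0.349), Ctla4 +0.26 ± 0.31 (adjusted p = 0.667) and Pdcd1 -0.12 ± 0.36 (adjusted p = 0.871).

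Tigit, the receptor shared by T and natural killer cells, was detected most often in starch/palmitate fat. Its raw count was above background in 0 of 8 sucrose/palmitate, 5 of 7 starch/palmitate, 2 of 9 sucrose/oleate, 4 of 9 starch/oleate, 3 of 7 Western diet and 0 of 8 chow libraries. With the highest negative probe as the limit, it was detected in 4 of 9 sucrose/oleate and 5 of 9 starch/oleate libraries, and the other diets were unchanged. Scaled levels in starch/palmitate were 14.2, 15.1, 53.6, 23.4, 8.57, 41.4 and 11.6 in libraries 1 to 7, so libraries 3, 4 and 6 carried most of the signal. In starch/oleate they ran from 6.92 to 36.3 with a median of 12.8, in sucrose/oleate from 7.07 to 16.6 (median 11.9) and in sucrose/palmitate from 3.15 to 12.2 (median 7.87). The Western diet gave 6.97 to 18.7 (median 10.1), against 5.96 to 13.5 in chow (median 7.56). Mean levels were 23.99 ± 17.1 in starch/palmitate, 16.4 ± 9.26 in starch/oleate, 11.6 ± 2.86 in sucrose/oleate, 11.2 ± 4.03 in the Western diet, 8.01 ± 2.44 in chow and 7.57 ± 2.61 in sucrose/palmitate (SD; n = 7, 9, 9, 7, 8 and 8). No neighbours in this order differed by more than the larger SD.

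Sucrose-fed fat held less Tigit than starch-fed fat. The difference over both fats was -1.05 ± 0.21 (adjusted p = 0.000777), a 2.07-fold lower level of counts that include background. Tigit was detected in only 0 of 8 sucrose/palmitate and 2 of 9 sucrose/oleate libraries. The difference held in all 11 alternative analyses in which Tigit was tested and without any 1 custom diet library. Within palmitate it was -1.60 ± 0.32 (adjusted p = 0.00189), and all 8 sucrose/palmitate libraries lay below the starch/palmitate mean, 6 of them below every starch/palmitate library. Without starch/palmitate 3 it was -1.27 (adjusted p = 0.0690), and without the 4 libraries high in epithelial genes -1.34 (adjusted p = 0.0510). The call was also lost when only these 2 groups were fitted (-1.61, adjusted p = 0.198, with 0 of all genes called). It was lost too with the positive control ratio added to the fit (-1.58, adjusted p = 0.117) and with the T cell covariate (-1.14, adjusted p = 0.0571). With oleate it was -0.49 ± 0.29 (adjusted p = 0.228). The difference between these effects, the interaction, was -1.11 ± 0.43 (unadjusted p = 0.0132, adjusted p = 0.141) and did not pass, although it did without starch/oleate 5 (-1.34, adjusted p = 0.0496). Palmitate against oleate gave -0.02 ± 0.20 (adjusted p = 0.955), with an interval from -0.41 to 0.38.

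Pdcd1, which encodes PD-1, varied with Tigit across the starch/palmitate fat pads. Scaled levels there were 11.8, 15.1, 92.1, 42.2, 9.43, 64.3 and 17.99 in libraries 1 to 7, again highest in libraries 3, 4 and 6. In starch/oleate they ran from 16.3 to 40.4 (median 17.6), in sucrose/oleate from 9.24 to 25.7 (median 16.8) and in sucrose/palmitate from 7.50 to 27.2 (median 16.02). The Western diet gave 8.53 to 25.3 (median 15.2), against 5.96 to 21.2 in chow (median 9.36). Mean levels were 36.1 ± 31.7 in starch/palmitate, 22.3 ± 8.53 in starch/oleate, 17.96 ± 5.47 in sucrose/oleate, 16.7 ± 6.01 in sucrose/palmitate, 15.2 ± 5.24 in the Western diet and 10.9 ± 4.69 in chow (SD; n = 7, 9, 9, 8, 7 and 8), with overlap between all neighbours.

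Both receptors rose in starch-fed fat relative to chow. In starch/palmitate, Tigit was 2.95-fold higher, +1.56 ± 0.32 (adjusted p = 0.000549), and Pdcd1 was 3.26-fold higher, +1.71 ± 0.35 (adjusted p = 0.000549). They were 2 of the 5 genes called there, beside 25.3% of all genes tested. All 7 starch/palmitate libraries lay above the chow mean for Tigit and 6 of 7 did for Pdcd1, but only 5 and 3 lay above every chow library. Both calls held without any 1 library of either diet. Adding the ratio of the 2 positive controls to the fit ended both, at +1.53 (adjusted p = 0.0572) for Tigit and +1.17 (adjusted p = 0.170) for Pdcd1, and in this pair of diets that ratio and the diet cannot be told apart.

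Starch/oleate was the diet with most of the 5 genes called against chow: 4, beside 60.3% of all genes tested. Tigit rose by +1.02 ± 0.31 (adjusted p = 0.00425) and Pdcd1 by +1.02 ± 0.34 (adjusted p = 0.00950), with 8 of 9 and 9 of 9 libraries above the chow mean. Ctla4 rose by +0.73 ± 0.30 (adjusted p = 0.0327), with 8 of 9 libraries above the chow mean and 3 above every chow library. Il2ra was the fourth and fell, as given above. The Ctla4 call was lost with TMM scaling (+0.46, adjusted p = 0.167) and, at adjusted p 0.0558 to 0.0982, without chow 2, 3 or 4 or starch/oleate 5, 6 or 8. With DESeq2, 2 of the 5 genes were called in this comparison, beside 290 genes in all. Tigit (+0.69, adjusted p = 0.0525) and Ctla4 (+0.40, adjusted p = 0.253) missed the threshold. DESeq2 gave lower values than edgeR for all 5 genes there, with Pdcd1 at +0.69, Foxp3 at +0.21 and Il2ra at -0.77. The part of the scaling in this shift was not tested.

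The other diets gave fewer calls against chow. Sucrose/palmitate gave 1 of the 5 genes, Il2ra, beside 17.1% of all genes tested, and the Western diet also gave 1, Il2ra, beside 40.7%. Sucrose/oleate gave 0 by edgeR, beside 36.7% of all genes tested. There Pdcd1, at +0.71 ± 0.34, had an unadjusted p of 0.0459 and was the only 1 of the 5 genes under 0.05 (adjusted p = 0.106), and DESeq2 also called 0. The fit of only these 2 groups called 2, beside 190 genes in all: Tigit (+0.53, adjusted p = 0.0439) and Pdcd1 (+0.71, adjusted p = 0.0268). Pdcd1 also passed with positive control scaling (+0.90, adjusted p = 0.0426) and with the negative probe mean subtracted (+1.47, adjusted p = 0.0451). Without chow 7, the chow library with the most Pdcd1, its difference was +0.92 (adjusted p = 0.0364). Tigit against chow was -0.04 ± 0.34 (adjusted p = 0.942) in sucrose/palmitate, +0.53 ± 0.32 (adjusted p = 0.199) in sucrose/oleate and +0.48 ± 0.34 (adjusted p = 0.264) in the Western diet. Pdcd1 was +0.59 ± 0.36 (adjusted p = 0.226) in sucrose/palmitate and +0.47 ± 0.37 (adjusted p = 0.317) in the Western diet. These 5 comparisons share the 8 chow libraries, so they are not independent of each other.

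**Figure D2:**
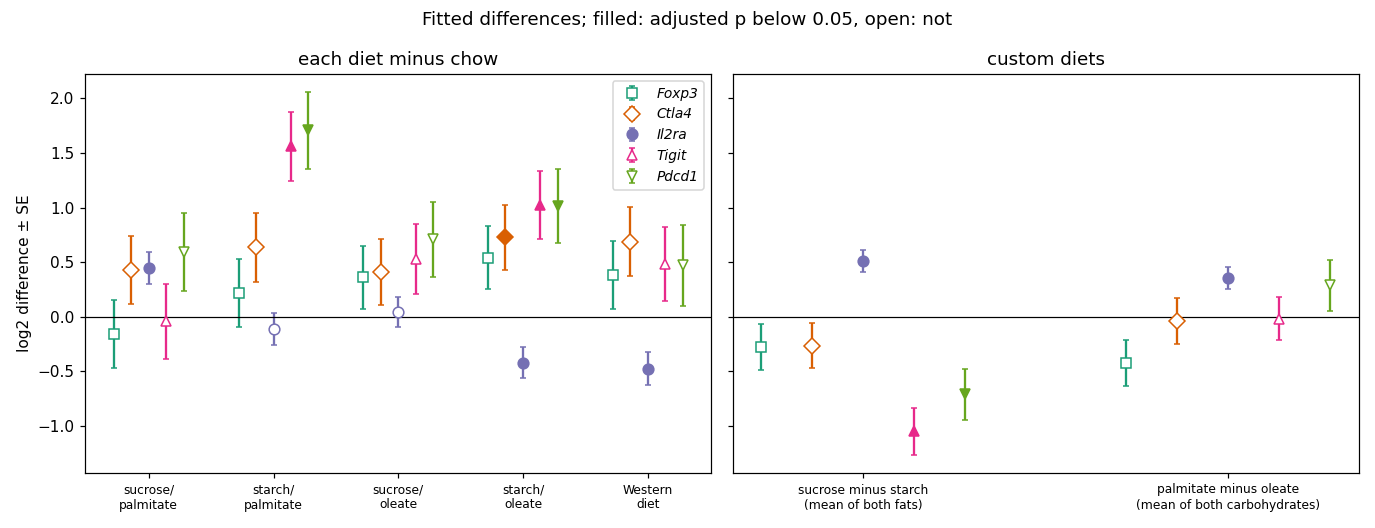
Fitted log2 differences with standard errors (vertical axis) for the 5 genes, for each fat-rich diet minus chow (left) and for sucrose minus starch and palmitate minus oleate in the custom diets (right). Filled markers passed an adjusted p of 0.05 and open markers did not. Tigit and Pdcd1 lie highest in starch/palmitate, at 1.56 and 1.71, and Il2ra lies below 0 in starch/oleate and the Western diet.

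Between the carbohydrates, 3 of the 5 genes passed, beside 9.98% of all genes tested, and they did not move one way. Il2ra was higher with sucrose, while Tigit and Pdcd1 were lower with sucrose. Pdcd1 gave -0.71 ± 0.23 (adjusted p = 0.0476). This call was ended by 9 alternatives, among them the T cell covariate, with the smaller difference given below. The loss of any of 19 libraries also ended it (adjusted p 0.0517 to 0.157). Those libraries were sucrose/palmitate 2, 3, 4, 5, 6 and 8, starch/palmitate 3, 4 and 6, sucrose/oleate 1, 3, 4, 5, 6 and 8 and starch/oleate 2, 5, 7 and 8, and the value without starch/palmitate 3 was -0.50. With palmitate, 2 of the 5 genes passed for sucrose against starch (Il2ra and Tigit), beside 2.04% of all genes tested, and Pdcd1 gave -1.11 ± 0.34 (adjusted p = 0.0659), passing without starch/palmitate 1, 2, 5 or 7 (adjusted p 0.0224 to 0.0363). DESeq2 called 3 of the 5 there, beside 10 genes in all, with Pdcd1 among them (-1.07, adjusted p = 0.0332). Pdcd1 also passed with TMM scaling (-1.04, adjusted p = 0.0499), positive control scaling (-1.26, adjusted p = 0.0415) and the B cell and lymph node covariate (-1.34, adjusted p = 0.00914). With oleate, 1 passed (Il2ra), beside 15.1%, and Pdcd1 gave -0.31 ± 0.31 (adjusted p = 0.529). The interaction called 0 of the 5 genes by edgeR, beside 5.50% of all genes tested. Tigit was the only 1 of the 5 with an unadjusted p under 0.05, and DESeq2 also called 0.

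Between the fats, 1 of the 5 genes passed, Il2ra, beside 34.4% of all genes tested. Foxp3, the lineage factor itself, had its lowest p here: -0.42 ± 0.21 (unadjusted p = 0.0491, adjusted p = 0.109), lower with palmitate. It passed without starch/palmitate 3 (-0.55, adjusted p = 0.0333), without sucrose/oleate 6 (-0.49, adjusted p = 0.0424) and with the mean of the negative probes subtracted (-1.14, adjusted p = 0.0262). Pdcd1 gave +0.29 ± 0.23 (adjusted p = 0.350) and Ctla4 -0.04 ± 0.21 (adjusted p = 0.915). Within starch, palmitate against oleate called 0 of the 5 by edgeR, beside 32.6% of all genes tested, with Il2ra (unadjusted p = 0.0416) and Pdcd1 (+0.69 ± 0.32, unadjusted p = 0.0359) under 0.05 before adjustment. DESeq2 called 2 there, beside 165 genes in all: Il2ra (+0.49, adjusted p = 0.0146) and Pdcd1 (+0.82, adjusted p = 0.0235). Pdcd1 also passed in edgeR without starch/palmitate 1, 2 or 5 or starch/oleate 5 (adjusted p 0.0343 to 0.0457), and Tigit without starch/oleate 5 (+0.77, adjusted p = 0.0350). Within sucrose it called 0 by edgeR, beside 3.67%, with only Il2ra (unadjusted p = 0.00567) under 0.05, and DESeq2 called Il2ra (+0.42, adjusted p = 0.0436).

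Foxp3 and Ctla4 stayed near the negative probes in every diet. Foxp3 levels ran from 7.12 to 24.4 in starch/oleate (median 12.9), from 7.64 to 20.9 in the Western diet (median 9.95) and from 1.41 to 18.5 in sucrose/oleate (median 12.7). They ran from 5.45 to 22.3 in starch/palmitate (median 8.47) and from 5.00 to 15.7 in sucrose/palmitate (median 6.45), against 5.10 to 15.4 in chow (median 8.91). Its means followed the order starch/oleate 13.6 ± 5.17, Western diet 12.3 ± 4.60, sucrose/oleate 11.8 ± 4.77, starch/palmitate 10.8 ± 5.85, chow 9.28 ± 3.34 and sucrose/palmitate 8.61 ± 4.42 (SD; n = 9, 7, 9, 7, 8 and 8), and no neighbours differed by more than the larger SD. Foxp3 passed in 0 of the 14 comparisons by edgeR, with an unadjusted p under 0.05 in 1 (palmitate against oleate), and in 0 of the 12 for which DESeq2 gave an adjusted p. Its largest difference from chow was +0.54 ± 0.29 in starch/oleate (adjusted p = 0.101), with an interval from -0.04 to 1.12, and it passed there without chow 7 (+0.68, adjusted p = 0.0451).

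Ctla4, the checkpoint receptor that regulatory T cells carry constantly, had similar means in all fat-rich diets. They were 15.2 ± 6.90 in starch/oleate, 15.1 ± 5.91 in the Western diet, 14.2 ± 9.35 in starch/palmitate, 12.2 ± 2.32 in sucrose/oleate and 12.1 ± 4.84 in sucrose/palmitate, against 9.12 ± 3.75 in chow (SD; n = 9, 7, 7, 9, 8 and 8). The libraries ran from 8.14 to 27.8 in starch/oleate, from 5.77 to 22.03 in the Western diet, from 7.41 to 33.4 in starch/palmitate, from 8.64 to 15.8 in sucrose/oleate and from 3.15 to 19.2 in sucrose/palmitate, against 4.16 to 15.1 in chow. Every pair of neighbouring diets overlapped, and none differed by more than the larger SD. Against chow, Ctla4 gave +0.69 ± 0.32 in the Western diet (adjusted p = 0.0788), passing without chow 1 or Western diet 6 (adjusted p 0.0307 to 0.0403) and without the 4 libraries high in epithelial genes (adjusted p = 0.0496), and +0.64 ± 0.32 in starch/palmitate (adjusted p = 0.119). It gave +0.43 ± 0.31 in sucrose/palmitate (adjusted p = 0.327) and +0.41 ± 0.30 in sucrose/oleate (adjusted p = 0.308).

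The fat pads with most Tigit and Pdcd1 were also those with most T cell transcript. Cd3d, Cd3e and Cd247 encode chains of the T cell receptor complex, and their mean log2 level was 6.61, 6.41 and 6.63 in starch/palmitate 3, 4 and 6, against 5.13 to 5.53 in the other 4 libraries of that diet. In starch/oleate 5, where it was 6.64, Tigit was 36.3 and Pdcd1 40.4, the highest of that diet. In sucrose/palmitate 7, where it was 6.46, Pdcd1 was 27.2, also the highest of its diet, but Tigit was only 7.93. The summed level of these 3 markers ran from 104 to 297 in starch/palmitate and from 122 to 298 in starch/oleate, against 72.8 to 125 in chow.

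**Figure D3:**
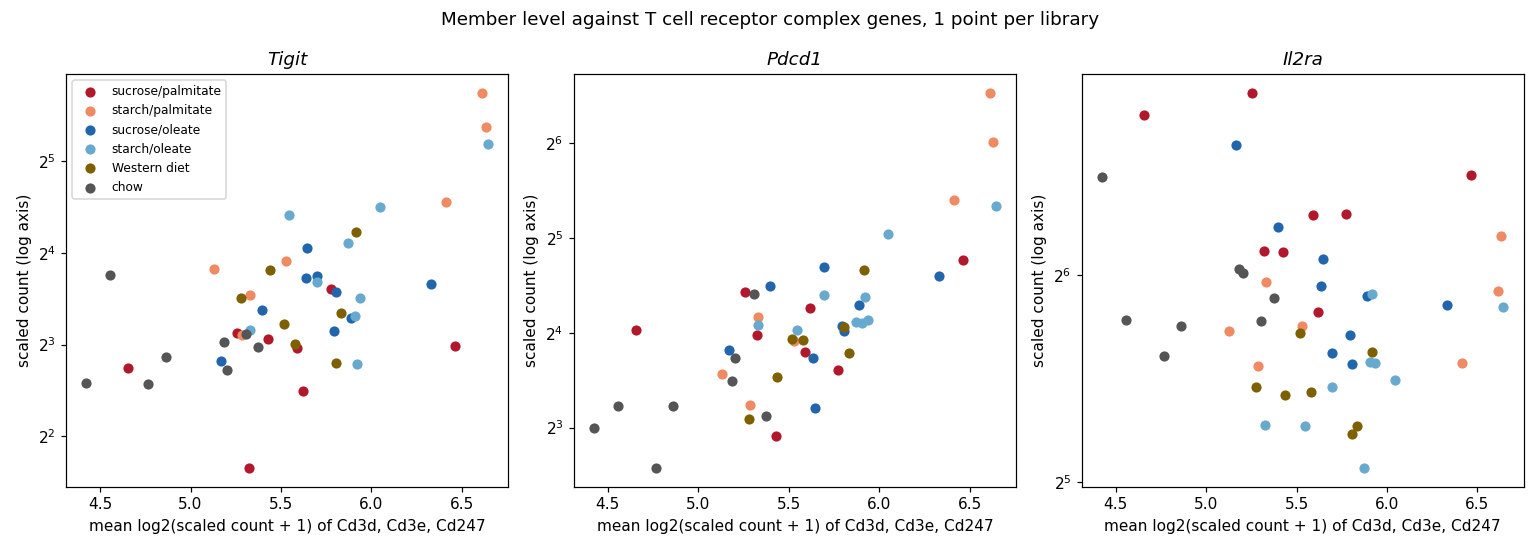
Scaled counts of Tigit, Pdcd1 and Il2ra (vertical axes, log scale) against the mean log2 level of Cd3d, Cd3e and Cd247 (horizontal axis), with 1 point per library, coloured by diet. The 4 libraries with most Pdcd1 lie at 6.41 or more on the horizontal axis. The sucrose/palmitate library at 6.46 lies low for Tigit, at 7.93, and the sucrose/palmitate libraries lie between 56.5 and 118 for Il2ra.

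With the mean of these 3 genes as a covariate, the differences of Tigit and Pdcd1 from chow no longer passed. In starch/palmitate they were +0.61 ± 0.32 (adjusted p = 0.281) for Tigit and +0.41 ± 0.31 (adjusted p = 0.489) for Pdcd1. In starch/oleate they were +0.18 ± 0.31 (adjusted p = 0.759) and -0.03 ± 0.31 (adjusted p = 0.949), and Ctla4 was +0.12 ± 0.33 (adjusted p = 0.796). The carbohydrate effect on Tigit kept its call, at -0.72 ± 0.19 (adjusted p = 0.0177), while that on Pdcd1 did not (-0.24 ± 0.18, adjusted p = 0.482). The carbohydrate effect on Il2ra was +0.49 ± 0.11 (adjusted p = 0.00266), its fat effect +0.35 ± 0.10 (adjusted p = 0.00734), and its Western diet difference from sucrose/palmitate -0.91 ± 0.15 (adjusted p = 9.06e-05). Its fall in starch/oleate against chow missed the threshold (-0.36 ± 0.17, adjusted p = 0.0885), and that in the Western diet passed (-0.43 ± 0.17, adjusted p = 0.0494). Subtracting the mean log2 level of the T cell genes from that of Tigit in each library left -2.48 ± 0.61 in sucrose/palmitate (SD, n = 8), -1.47 ± 0.41 in starch/palmitate (n = 7), -2.09 ± 0.36 in sucrose/oleate (n = 9), -1.92 ± 0.58 in starch/oleate (n = 9) and -2.07 ± 0.49 in the Western diet (n = 7), against -1.83 ± 0.50 in chow (n = 8). Starch/palmitate was the only fat-rich diet whose mean lay above that of chow, by less than the SD of either. Tigit was detected in 0 of 8 chow and 0 of 8 sucrose/palmitate libraries, so there these values set background counts against the T cell genes. They therefore cannot show how much Tigit those 2 diets held per T cell transcript.

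Markers of other immune cells moved with the starch/oleate calls. In that diet 4 of 4 tested B cell markers, 5 of 7 lymph node markers, 4 of 4 natural killer markers and 4 of 4 macrophage markers were called higher than chow, beside 48.3% of all genes tested. The summed B cell markers ran from 175 to 630 in starch/oleate, against 89.7 to 233 in chow. With the mean of the B cell and lymph node markers as a covariate, the starch/oleate differences of Tigit (+0.70 ± 0.37, adjusted p = 0.129), Pdcd1 (+0.30 ± 0.36, adjusted p = 0.533), Ctla4 (+0.39 ± 0.35, adjusted p = 0.406) and Il2ra (-0.41 ± 0.17, adjusted p = 0.0561) missed the threshold. In starch/palmitate, 0 of 4 B cell markers and 0 of 7 lymph node markers were called, 2 of 4 natural killer markers and 3 of 4 macrophage markers were higher, beside 20.6% of all genes tested, and the same covariate left Tigit at +1.47 (adjusted p = 0.00108) and Pdcd1 at +1.49 (adjusted p = 0.000891). The macrophage markers were Cd14 (+0.58), Emr1 (+0.88) and Itgax (+1.00). Of 4 epithelial markers 2 were higher in starch/palmitate, Pigr (+4.96 ± 1.05, adjusted p = 0.000651) and Defb1 (+6.21 ± 1.51, adjusted p = 0.00278). The part of the macrophage and epithelial markers in the starch/palmitate differences was not tested with a covariate, and without the 4 libraries high in epithelial genes Tigit gave +1.30 (adjusted p = 0.00525) and Pdcd1 +1.42 (adjusted p = 0.00512) there.

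Several genes of the T cell receptor complex and its coreceptors were higher in fat-rich diets than in chow. Of 12 tested genes, 6 were called higher in starch/palmitate, 8 in starch/oleate, 5 in sucrose/oleate, 5 in the Western diet and 1 in sucrose/palmitate, and 0 were lower. Over all genes tested, the share called higher was 20.6% in starch/palmitate, 48.3% in starch/oleate, 28.9% in sucrose/oleate, 32.8% in the Western diet and 14.9% in sucrose/palmitate. Their median difference was 0.73 in starch/palmitate and 0.95 in starch/oleate, beside 0.24 and 0.34 over all genes. In starch/oleate fat, the kinase gene Lck rose by +0.97 ± 0.17 (adjusted p = 9.64e-06), Cd4 by +1.23 ± 0.24 (adjusted p = 3.21e-05) and Cd3d by +1.05 ± 0.22 (adjusted p = 8.04e-05), while the adhesion receptor gene Cd2 gave +0.07 ± 0.19 (adjusted p = 0.767). Between sucrose and starch 4 of the 12 were lower with sucrose, beside 5.91% of all genes tested: Cd4 (-0.62 ± 0.17, adjusted p = 0.0169), Lck (-0.39 ± 0.12, adjusted p = 0.0442), Cd8b1 (-0.69 ± 0.22, adjusted p = 0.0469) and Cd8a (-0.65 ± 0.22, adjusted p = 0.0493). The median of the 12 was -0.29, beside -0.07 over all genes.

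Among 8 other checkpoint and costimulatory receptors tested, of 10 on the panel, 3 were called higher than chow in starch/oleate (48.3% of all genes tested) and 2 in starch/palmitate (20.6%). Sucrose/palmitate (14.9%), sucrose/oleate (28.9%) and the Western diet (32.8%) gave 1 each, and 0 were lower. In starch/oleate these were Slamf7, a receptor of lymphocytes and myeloid cells (+2.02 ± 0.27, adjusted p = 4.95e-08), Icos, a costimulatory receptor of activated and regulatory T cells (+0.80 ± 0.23, adjusted p = 0.00242), and Cd160 (+0.69 ± 0.26, adjusted p = 0.0179). Btla, which encodes an inhibitory receptor mostly of B and T cells, gave +0.02 ± 0.15 (adjusted p = 0.938). The median of the 8 was 0.28 in starch/oleate, beside 0.34 over all genes. 

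Ligands of these receptors were on the panel too. Of 6 tested, 3 were called higher than chow in starch/oleate, beside 48.3% of all genes tested, 1 in starch/palmitate (20.6%) and 1 in the Western diet (32.8%). In sucrose/palmitate (14.9%) and sucrose/oleate (28.9%) 0 were called higher. In starch/oleate, Cd80, a ligand of CTLA-4 and CD28, rose by +0.69 ± 0.19 (adjusted p = 0.00165), Tnfrsf14, the ligand of BTLA, by +0.39 ± 0.13 (adjusted p = 0.00952), and Pdcd1lg2, which encodes PD-L2, by +0.44 ± 0.17 (adjusted p = 0.0202). Cd274, which encodes PD-L1, gave -0.03 ± 0.18 (adjusted p = 0.897) there. Their median in starch/oleate was 0.36, beside 0.34 over all genes.

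The other chains of the receptor moved apart from Il2ra in starch/oleate fat. Il2rb and Il2rg encode the signalling chains of the interleukin 2 receptor and rose there, where Il2ra fell, by +0.74 ± 0.18 (adjusted p = 0.000646) and +0.67 ± 0.18 (adjusted p = 0.00178). These were 2 of the 6 tested genes of the axis called higher there, beside 48.3% of all genes tested. Stat5a, which acts below the receptor, gave -0.09 ± 0.26 (adjusted p = 0.776). Il2rb also rose in sucrose/oleate (+0.53 ± 0.18, adjusted p = 0.0189), 1 of 6 beside 28.9%. In sucrose/palmitate, starch/palmitate and the Western diet 0 of 6 were called, beside 17.1%, 25.3% and 40.7% of all genes tested in either direction. Between sucrose and starch, where Il2ra was higher with sucrose, Il2rb gave -0.28 ± 0.13 (adjusted p = 0.176) and Il2rg -0.23 ± 0.13 (adjusted p = 0.268).

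A wider list of genes linked to regulatory T cells was read beside all genes tested. It holds Il33, on whose product these cells depend, and Il7r, both called higher in starch/oleate and in the Western diet. The counts are therefore not counts of regulatory T cell markers. Of 16 tested, 11 were called higher than chow in starch/oleate (48.3% of all genes tested), 10 in the Western diet (32.8%), 6 in sucrose/oleate (28.9%), 3 in starch/palmitate (20.6%) and 3 in sucrose/palmitate (14.9%), and 1, Irf4, was lower than chow in each oleate diet. The median in starch/oleate was 0.78, beside 0.34 over all genes. There Entpd1, which encodes the ectonucleotidase CD39, rose by +0.81 ± 0.11 (adjusted p = 1.66e-07), Tgfb1 by +1.01 ± 0.16 (adjusted p = 8.77e-07) and Il1rl1, the interleukin 33 receptor, by +1.12 ± 0.19 (adjusted p = 4.77e-06). Ikzf2, which encodes Helios, gave +0.22 ± 0.25 (adjusted p = 0.478). Macrophages also express Entpd1 and Tgfb1 and mast cells Il1rl1, and markers of both were called higher in this diet, at 4 of 4 for macrophages and 2 of 2 for mast cells; their part in these rises was not tested. Between sucrose and starch 1 of 16 was called, beside 9.98% of all genes tested: Gata3 (-2.58 ± 0.62, adjusted p = 0.00568), which epithelia also express. The 4 libraries high in epithelial genes are all of starch diets. With sucrose 2 of 4 epithelial markers were lower, beside 5.91% of all genes tested, and their part in the Gata3 difference was not tested.

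Within diets, Pdcd1 had the highest likeness to other genes. Likeness was measured as Spearman's rho over the 48 libraries between deviations of log2 levels from the diet means, against all other tested genes, and the points share their libraries and scaling. Pdcd1 was most like Cxcr6 (rho = 0.78), a chemokine receptor gene of tissue T and natural killer T cells, then H2-Ab1 (0.75) and Spn (0.74). Tigit was most like Il2rb (0.55), Klrd1 (0.55), a natural killer receptor gene, and Ccl5 (0.53), and Ctla4 was most like Ccl5 (0.57), Il2rb (0.54) and H2-Eb1 (0.54). Il2ra was most like Map4k1 (0.53), Cd2 (0.48) and Ifngr2 (0.45), and Foxp3 most like Xcr1 (0.47), Slamf7 (0.46) and Cxcr3 (0.45). Some of these ranks depend on the scaling and the measure. With TMM scaling Map4k1 was rank 4 (0.43) and Cd2 rank 11 (0.33) for Il2ra, Cxcr3 was rank 11 (0.31) for Foxp3, and Spn was rank 7 (0.63) for Pdcd1. Klrd1 and Ccl5 were ranks 4 and 5 for Tigit (both 0.44). Pearson's r of Foxp3 and Xcr1 was 0.35.

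By Spearman's rho, each of the 5 genes was less like the other 4 than like the genes named above. The highest rho between them was that of Tigit and Ctla4 at 0.41, followed by Pdcd1 and Ctla4 at 0.39 and Tigit and Pdcd1 at 0.36. By Pearson's r this order does not hold: Tigit and Pdcd1 gave 0.54, above Tigit and Klrd1 (0.53). By rho, Foxp3 gave 0.27 with Pdcd1, 0.26 with Ctla4, 0.05 with Tigit and -0.06 with Il2ra. With Cd3d the values were 0.67 for Pdcd1, 0.45 for Tigit, 0.41 for Foxp3, 0.37 for Ctla4 and -0.04 for Il2ra. For Foxp3, Tigit and Ctla4, most of whose counts lie near background, these values are weak and are given as a description.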

How the data were processed

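The NanoString nCounter Mouse Immunology panel was read for total RNA of epididymal fat, 1 library per sample, in 48 samples. The values deposited by the authors are counts, whole numbers of barcodes per probe whose totals differ between samples, and were taken as raw counts. The lowest is 1, held by 151 of 27600 values, and none is 0. Whether a count of 0 was set to 1, any background handling and the counting software are not given in the sources used here. Members and gene lists were chosen with earlier results of these data known.

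The scaling factor of a library was the geometric mean of its 14 reference genes. A gene was tested if its count averaged 10 or more, which left 491 of 547. One edgeR 4.0.16 fit (glmQLFit and glmQLFTest, R 4.3.3) held all 48 samples and a mean per diet. The 14 comparisons were two-sided, with Benjamini-Hochberg adjustment over the 491 genes. The fit was tested on simulated data. Log2 levels used a pseudocount of 1. Each list names up to 3 called genes with the smallest p and 1 gene not called. Equal replicate numbers did not pair samples (mean correlation -0.016, 112 pairs), and no 2 libraries were copies (lowest chi-square per degree of freedom 4.84). P-values measure the spread between samples labelled as separate, which may in part be technical. Alternatives were TMM and positive control scaling, other count minimums, negative probe subtraction, a replicate block, fits of the compared groups alone, 3 covariates, leaving out libraries, and DESeq2 1.42.0.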

Additional observations from a re-analysis of the deposited data

Results flagged for a closer look

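In 3 of the 30 groupings of gene and diet, the highest or lowest library stood apart from the others of its diet by Dixon's test, where chance flags about 1 in 20 groups. Foxp3 in sucrose/oleate 6 was the lowest of its diet at 1.41, with the next library at 9.89. Its deposited count was 1, the lowest value in the table, which may stand for 0. Without this library Foxp3 passed for palmitate against oleate (-0.49, adjusted p = 0.0424), and the sucrose against starch difference of Il2ra with oleate did not (+0.36, adjusted p = 0.0697). Il2ra in chow 8 was the highest of its diet at 88.7, with the next library at 65.3. Tigit in chow 5 was the highest of its diet at 13.5, with the next library at 8.67, and its raw count did not reach the detection limit.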

How the results depend on the processing

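The higher Il2ra and lower Tigit with sucrose than with starch, and the lower Il2ra in the Western diet than in sucrose/palmitate, kept direction and call under every alternative in which each was tested. The values below are counts of the 5 genes called and log2 differences whose sign turned. Of the latter, Pdcd1 in starch/oleate against chow was the only difference called in the analysis reported above. Not every changed count is listed. For sucrose against starch, no count minimum, the replicate block and fits of only the groups compared each gave 2 of the 5 genes. DESeq2 gave 3 for sucrose/palmitate against starch/palmitate. Counts of the 5 genes without a count over all genes beside them are a description only. The causes of these changes were not tested, apart from the stricter count minimum, which removes genes. Most raw counts of Foxp3, Tigit and Ctla4 lay below the detection limit.

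With TMM scaling, the count of genes called was 0 in sucrose/palmitate against chow and 2 in starch/palmitate against starch/oleate. Over all genes tested, 39 were called higher and 22 lower in the first, and 72 and 84 in the second. Il2ra turned to -0.10 in sucrose/oleate against chow and -0.043 in the interaction there. Ctla4 turned to 0.020 in palmitate against oleate and 0.0016 in starch/palmitate against starch/oleate there. Tigit turned to 0.046 in palmitate against oleate there. Under positive control scaling, the count of genes called was 0 in sucrose/palmitate against chow, the Western diet against chow, palmitate against oleate and sucrose/oleate against starch/oleate and 1 in sucrose/oleate against chow. Over all genes, 4 and 1 were called higher and lower in the first and 161 and 17 in the second. The others gave 32 and 85, 14 and 13, and 177 and 12, in that order. Tigit turned to 0.044 in sucrose/palmitate against chow there. Il2ra turned to 0.067 in starch/palmitate against chow and -0.053 in the interaction there. Ctla4 turned to -0.087 in the interaction and -0.092 in sucrose/palmitate against sucrose/oleate there. After subtraction of the mean of the negative probes, the count of genes called was 1 in sucrose/oleate against chow and 2 in palmitate against oleate. Tigit turned to 0.40 in sucrose/palmitate against chow there. Ctla4 turned to -0.011 in sucrose/palmitate against sucrose/oleate there. With a mean count of at least 30, which leaves Il2ra alone among the 5 genes, the count of genes called was 0 in starch/palmitate against chow and 1 in starch/oleate against chow, sucrose against starch, sucrose/palmitate against starch/palmitate and any difference. With a replicate block in the fit, the count of genes called was 1 in sucrose/palmitate against starch/palmitate, where 1 gene was called in all. Ctla4 turned to -0.024 in sucrose/palmitate against sucrose/oleate there. In fits of only the groups compared, the count of genes called was 0 in sucrose/palmitate against chow and sucrose/palmitate against starch/palmitate and 2 in sucrose/oleate against chow. Over all genes, these fits called 13, 0 and 190, in that order. With the T cell genes as a covariate, the count of genes called was 0 in sucrose/palmitate against chow, starch/palmitate against chow, starch/oleate against chow and sucrose/palmitate against starch/palmitate. Foxp3 turned to -0.10 in starch/palmitate against chow there. Ctla4 turned to -0.0061 in starch/palmitate against chow, -0.073 in sucrose/oleate against chow, 0.0070 in palmitate against oleate and 0.071 in sucrose/palmitate against starch/palmitate there. Tigit turned to -0.12 in sucrose/oleate against chow, -0.093 in the Western diet against chow and 0.013 in palmitate against oleate there. Pdcd1 turned to -0.11 in sucrose/oleate against chow, -0.033 in starch/oleate against chow, -0.27 in the Western diet against chow and 0.11 in sucrose/palmitate against sucrose/oleate there. With the B cell and lymph node markers as a covariate, the count of genes called was 0 in sucrose/palmitate against chow, starch/oleate against chow and sucrose/oleate against starch/oleate and 1 in starch/palmitate against starch/oleate. Tigit turned to 0.025 in palmitate against oleate there. Ctla4 turned to -0.28 in the interaction, 0.14 in starch/palmitate against starch/oleate and -0.14 in sucrose/palmitate against sucrose/oleate there. Pdcd1 turned to 0.27 in sucrose/oleate against starch/oleate there. With the positive control ratio in the model, the count of genes called was 0 in sucrose/palmitate against chow, starch/palmitate against chow, sucrose/palmitate against starch/palmitate and sucrose/oleate against starch/oleate and 2 in starch/oleate against chow. Foxp3 turned to -0.31 in starch/palmitate against chow, -0.21 in sucrose/oleate against chow and 0.52 in the interaction there. Pdcd1 turned to 0.30 in sucrose/palmitate against sucrose/oleate and 0.090 in the Western diet against sucrose/palmitate there. Without the libraries high in epithelial markers, the count of genes called was 0 in sucrose/palmitate against starch/palmitate and 2 in the Western diet against chow and palmitate against oleate. Foxp3 turned to 0.074 in the interaction there. Ctla4 turned to 0.13 in sucrose/palmitate against starch/palmitate there. In DESeq2, the count of genes called was 0 in sucrose/palmitate against chow, 1 in sucrose/palmitate against sucrose/oleate and 2 in starch/oleate against chow and starch/palmitate against starch/oleate. Over all genes, DESeq2 called 73, 60, 290 and 165, in that order. Il2ra turned to -0.15 in sucrose/oleate against chow and -0.068 in the interaction there. Ctla4 turned to 0.044 in palmitate against oleate, -0.021 in the interaction and 0.055 in starch/palmitate against starch/oleate there. Tigit turned to 0.060 in palmitate against oleate there. The replicate numbers pair no samples, and with the replicate block Pdcd1 gave -0.68 (adjusted p = 0.0931) for sucrose against starch and Il2ra 0.55 (adjusted p = 0.0929) for sucrose/palmitate against starch/palmitate, so both missed the threshold.

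Leaving out 1 library at a time gave counts of 0 to 1 in sucrose/palmitate against chow, sucrose/oleate against chow, the interaction, sucrose/oleate against starch/oleate and sucrose/palmitate against sucrose/oleate, 1 to 2 in the Western diet against chow and palmitate against oleate, 0 to 3 in sucrose/palmitate against starch/palmitate and 0 to 2 in starch/palmitate against starch/oleate. Tigit then ran from -0.17 to 0.10 in sucrose/palmitate against chow and -0.18 to 0.098 in palmitate against oleate. Foxp3 then ran from -0.049 to 0.36 in starch/palmitate against chow and -0.38 to 0.075 in the interaction. Il2ra then ran from -0.058 to 0.14 in sucrose/oleate against chow. Ctla4 then ran from -0.21 to 0.042 in palmitate against oleate, -0.051 to 0.46 in the interaction, -0.34 to 0.14 in sucrose/palmitate against starch/palmitate, -0.44 to 0.068 in starch/palmitate against starch/oleate and -0.11 to 0.13 in sucrose/palmitate against sucrose/oleate. Pdcd1 then ran from -0.25 to 0.00033 in sucrose/palmitate against sucrose/oleate and -0.29 to 0.0080 in the Western diet against sucrose/palmitate.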
